A study of Mus musculus with 8 samples.

Results

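The nuclear receptor gene Pparg and 9 genes of lipid uptake and lipid droplets were followed in the livers of mice with a hairpin against Dnajb9, the gene of an endoplasmic reticulum co-chaperone, or against Rictor, a defining subunit of mTOR complex 2. The 10 members were named by symbol: Pparg, Cd36, Cidec, Plin4, Plin5, Fabp4, Fitm1, Fitm2, Lpl and Vldlr. All 10 were among the 24062 gene entries of the count tables, and all 10 passed the filter on low counts that left 13767 genes to test. The shDnajb9 group carried a short hairpin adenovirus against Dnajb9 and was set against lacZ1. The shRictor group carried a hairpin adenovirus against Rictor and was set against lacZ2. Every mouse was a lean, wild-type C57BL/6 animal, 3 months old in the shDnajb9 and lacZ1 groups and 4 months old in the shRictor and lacZ2 groups. Each received 0.1 OD of virus and was killed 1 week later, having been without food for 6 hours. Each group had 2 libraries of ribosomal RNA-depleted total RNA from whole liver. The labels name neither the cargo of the lacZ virus nor the animal behind each library, so p-values measure only the spread between these samples.

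PPAR gamma binds DNA together with a retinoid X receptor and switches on genes that import fatty acids and store them as triglyceride. In healthy liver it is far less abundant than PPAR alpha, which drives fatty acid oxidation, and its level is known to climb in fatty liver. Stored triglyceride sits in droplets that bud from the endoplasmic reticulum with the help of FITM proteins, are coated by perilipins, and enlarge when CIDE proteins fuse them. Outside hepatocytes, macrophages and endothelial cells also express Cd36, Lpl, Fabp4 and Vldlr.

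The stretch before the transcription start is printed for 4 members: the receptor gene, the transporter gene Cd36, and Plin4 and Cidec, the droplet genes with the deepest falls. They are the 250 bases upstream of the first RefSeq start in GRCm38.p6, on the gene's own strand. Capitals mark AGGTCA, the core site of nuclear receptors, or its reverse complement TGACCT. The Pparg stretch is chr6:115360894-115361143 on the plus strand. The others, all on the minus strand, are chr5:17835897-17836146 for Cd36, chr6:113435761-113436010 for Cidec and chr17:56109783-56110032 for Plin4.
Pparg: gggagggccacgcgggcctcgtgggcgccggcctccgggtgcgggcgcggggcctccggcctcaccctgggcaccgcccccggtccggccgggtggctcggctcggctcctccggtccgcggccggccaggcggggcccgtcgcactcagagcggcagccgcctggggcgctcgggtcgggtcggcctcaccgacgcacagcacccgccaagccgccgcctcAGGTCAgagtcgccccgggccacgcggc
Cd36: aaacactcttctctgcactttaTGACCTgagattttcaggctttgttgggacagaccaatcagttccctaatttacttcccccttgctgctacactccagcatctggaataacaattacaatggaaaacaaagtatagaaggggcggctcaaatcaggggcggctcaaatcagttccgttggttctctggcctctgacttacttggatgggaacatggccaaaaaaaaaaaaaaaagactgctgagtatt
Cidec: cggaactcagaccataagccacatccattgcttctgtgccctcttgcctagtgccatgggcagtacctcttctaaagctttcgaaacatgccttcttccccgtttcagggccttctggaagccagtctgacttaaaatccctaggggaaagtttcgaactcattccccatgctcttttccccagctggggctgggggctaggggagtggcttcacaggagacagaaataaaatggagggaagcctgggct
Plin4: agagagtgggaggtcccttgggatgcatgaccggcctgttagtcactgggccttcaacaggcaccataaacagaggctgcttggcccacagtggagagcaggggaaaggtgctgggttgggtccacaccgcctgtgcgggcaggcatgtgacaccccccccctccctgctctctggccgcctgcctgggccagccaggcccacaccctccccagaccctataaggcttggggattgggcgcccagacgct
The Pparg match begins 28 bases before the start, and the Cd36 match, on the opposite strand, 228 bases before it. No match lies in the Cidec and Plin4 stretches. RefSeq windows of 300 bases, 250 before and 50 after a start, were found for 8 of the 10 members, in 13 windows. AGGTCA stood on either strand in 5 of these 13 windows (38.5%), those of Pparg, Cd36 and Plin5, and in 5340 of 32851 windows of all genes (16.3%). The direct repeat AGGTCANAGGTCA, the consensus of PPAR pairs, which contains the core site, was in 0 of the 13 windows and in 13 windows of all genes (0.0396%). A match describes the letters only, and no match says nothing about binding outside these windows.

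Reads assigned to genes numbered 6426164 and 9606030 in shDnajb9 and 9791933 and 7830716 in lacZ1, and 9255887 and 11383532 in shRictor and 6727294 and 10464225 in lacZ2. Dnajb9 was at 22.0 and 20.3 CPM (reads scaled to library size) in shDnajb9, against 30.6 and 38.0 CPM in lacZ1, a log2 fold change of -0.70 with an adjusted p of 0.056. Rictor was at 40.1 and 42.0 CPM in shRictor, against 52.3 and 65.2 CPM in lacZ2, a log2 fold change of -0.52 with an adjusted p of 0.231. Both targets were lower in every library of their hairpin, and neither passed the threshold. Rictor was also at 33.3 and 63.4 CPM in shDnajb9, against 65.4 and 68.8 CPM in lacZ1 (-0.46, adjusted p 0.239), a fold change of similar size to that with its own hairpin. Dnajb9 was at 61.1 and 43.8 CPM in shRictor, against 40.4 and 38.8 CPM in lacZ2 (0.41, adjusted p 0.271). Replicate 1 of shDnajb9 and replicate 1 of lacZ2 had the lowest and the highest TMM scaling factor, 0.743 and 1.28. By that measure alone they are called the libraries that stood apart. The members, the counts of called genes and the called list genes given with a fold change, cell type markers aside, were refitted without both. The factors also split by treatment, at 0.743 to 0.918 in the hairpin libraries and 1.07 to 1.28 in the lacZ libraries. Calls that total count scaling changes, given below, depend on these factors. The main axis of variation (63.3% of the variance) held the 4 hairpin libraries at 27.95 to 74.99 and the 4 lacZ libraries at -61.32 to -39.89. The share of reads that mapped to more than 1 place was 41.3% and 41.97% in shDnajb9, against 22.88% and 24.88% in lacZ1, and 32.69% and 26.72% in shRictor, against 24.59% and 24.23% in lacZ2. These shares moved with the hairpins, as the values below do, and their part in the results was not tested.

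Cd36 and Lpl, which supply the cell with fatty acids, and Cidec, which enlarges droplets, were lower with either hairpin, whereas Pparg itself was not called. With the Dnajb9 hairpin, Cd36, Lpl, Vldlr, Plin4 and Cidec fell, 5 of the 10 members, where 12.6% of all tested genes were called lower. With the Rictor hairpin, Cd36, Lpl, Fabp4 and Cidec fell, 4 of 10, where 10.9% of all tested genes were called lower. Cd36, Lpl and Cidec fell in both, 3 of 10, as did 6.85% of tested genes. A call is an adjusted p under 0.05 in the quasi-likelihood F test of edgeR, adjusted over all tested genes. The median log2 fold change of the members was -1.46 with the Dnajb9 hairpin and -1.03 with the Rictor hairpin, against -0.046 and -0.017 over all tested genes. Since the members were chosen with earlier results of these data known, the counts describe them and test nothing.

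No member rose in either contrast by edgeR, where 11.6% of tested genes were called higher with the Dnajb9 hairpin and 7.31% with the Rictor hairpin. At an unadjusted p under 0.05, edgeR placed 1 member higher in each contrast, which was Fitm1. At that threshold it placed 2594 of the 13767 tested genes higher with the Dnajb9 hairpin and 1919 with the Rictor hairpin. DESeq2 and limma-voom called 0 members higher in both. Leaving out replicate 2 of shDnajb9 raised the Dnajb9 count of risers to 1, and leaving out either shDnajb9 library raised the Rictor count to 1, in each case Fitm1. The number of all genes called with the Dnajb9 hairpin, 3325 (24.2%), dropped to 998 without replicate 1 of lacZ1, to 2041 without replicate 2 of lacZ1 and to 1385 without replicate 1 of shDnajb9. With the Rictor hairpin, 2508 genes were called (18.2%), against 1053 without replicate 1 of lacZ2, 1156 without replicate 1 of shRictor and 1317 without replicate 2 of shRictor. Without both libraries that stood apart, 4 members fell in each contrast, and 1675 genes were called with the Dnajb9 hairpin.

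**Figure D1:**
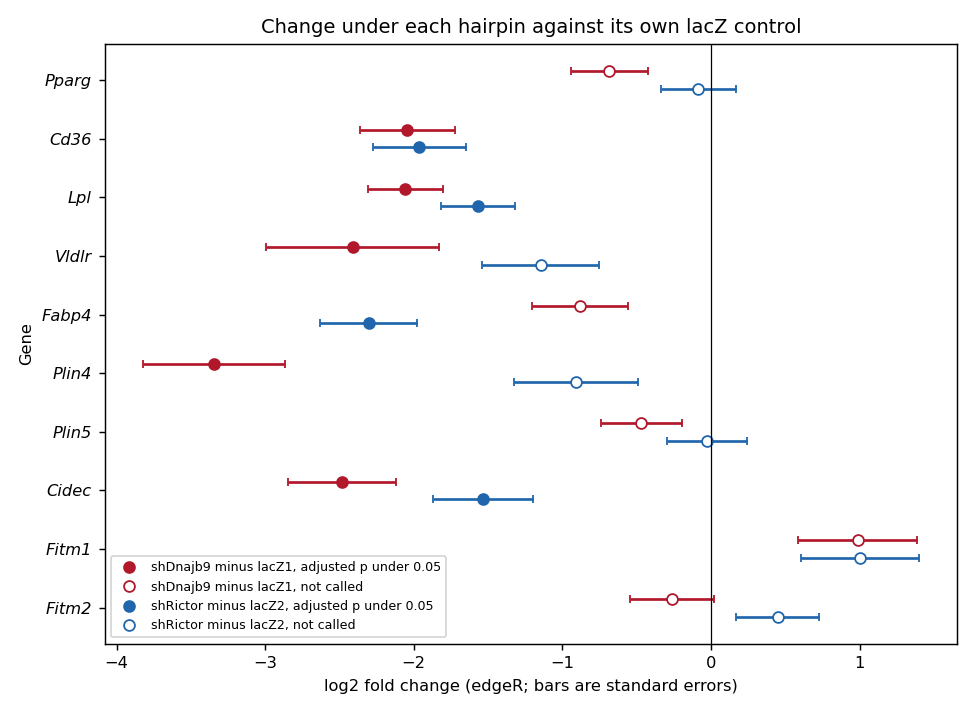
Log2 fold change of each member, shDnajb9 over lacZ1 and shRictor over lacZ2, with bars of 1 SE from the edgeR fit of 2 libraries per group; filled points have an adjusted p under 0.05. Cd36, Lpl and Cidec lie below 0 and are filled in both contrasts, Plin4 and Vldlr are filled with the Dnajb9 hairpin, Fabp4 is filled with the Rictor hairpin, and Fitm1 lies above 0 without a call.

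Pparg lies at chr6:115360951-115490399 on the plus strand of mm10. It was at 21.4 and 16.2 CPM in shDnajb9, against 30.2 and 29.7 CPM in lacZ1. In shRictor it was at 28.8 and 24.2 CPM, against 22.7 and 33.3 CPM in lacZ2. Both shDnajb9 libraries were below both lacZ1 libraries, while the shRictor values lay between those of lacZ2. The log2 fold change was -0.68 (SE 0.261) with the Dnajb9 hairpin, with an adjusted p of 0.0719, and -0.085 (SE 0.253) with the Rictor hairpin, with an adjusted p of 0.858. Scaling by total count alone gave a Dnajb9 value of -1.12 and an adjusted p of 0.00922, and without the filter on low counts it was -0.70 with an adjusted p of 0.0497. Total count scaling also moved the median of all genes to -0.46 in the Dnajb9 contrast and to -0.42 in the Rictor contrast, so Pparg lay about as far below that median as in the edgeR scaling. The sign of the Rictor value turned to 0.24 without replicate 2 of lacZ2 and to 0.042 without replicate 2 of shRictor.

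Per kilobase of transcript, which lets genes be compared, Pparg stood between its relatives in every group. Pparg averaged 10.6 CPM per kilobase in shDnajb9 and 17 in lacZ1, and 15 in shRictor and 15.9 in lacZ2. Ppara, the receptor of fatty acid oxidation, averaged 76.5 CPM per kilobase in shDnajb9 and 72.5 in lacZ1, and 166 in shRictor and 74.8 in lacZ2. Ppard, the broadly expressed receptor of the family, averaged 1.68 CPM per kilobase in shDnajb9 and 4.26 in lacZ1, and 2.59 in shRictor and 4.02 in lacZ2. Of the summed level of the PPAR genes, the share of Pparg was 16.4% and 8.82% in shDnajb9, against 17.5% and 18.7% in lacZ1. In shRictor its part was 10.5% and 6.48%, against 17.4% and 16.3% in lacZ2. Lengths were those of the longest principal coding transcript in GENCODE release M21.

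**Figure D2:**
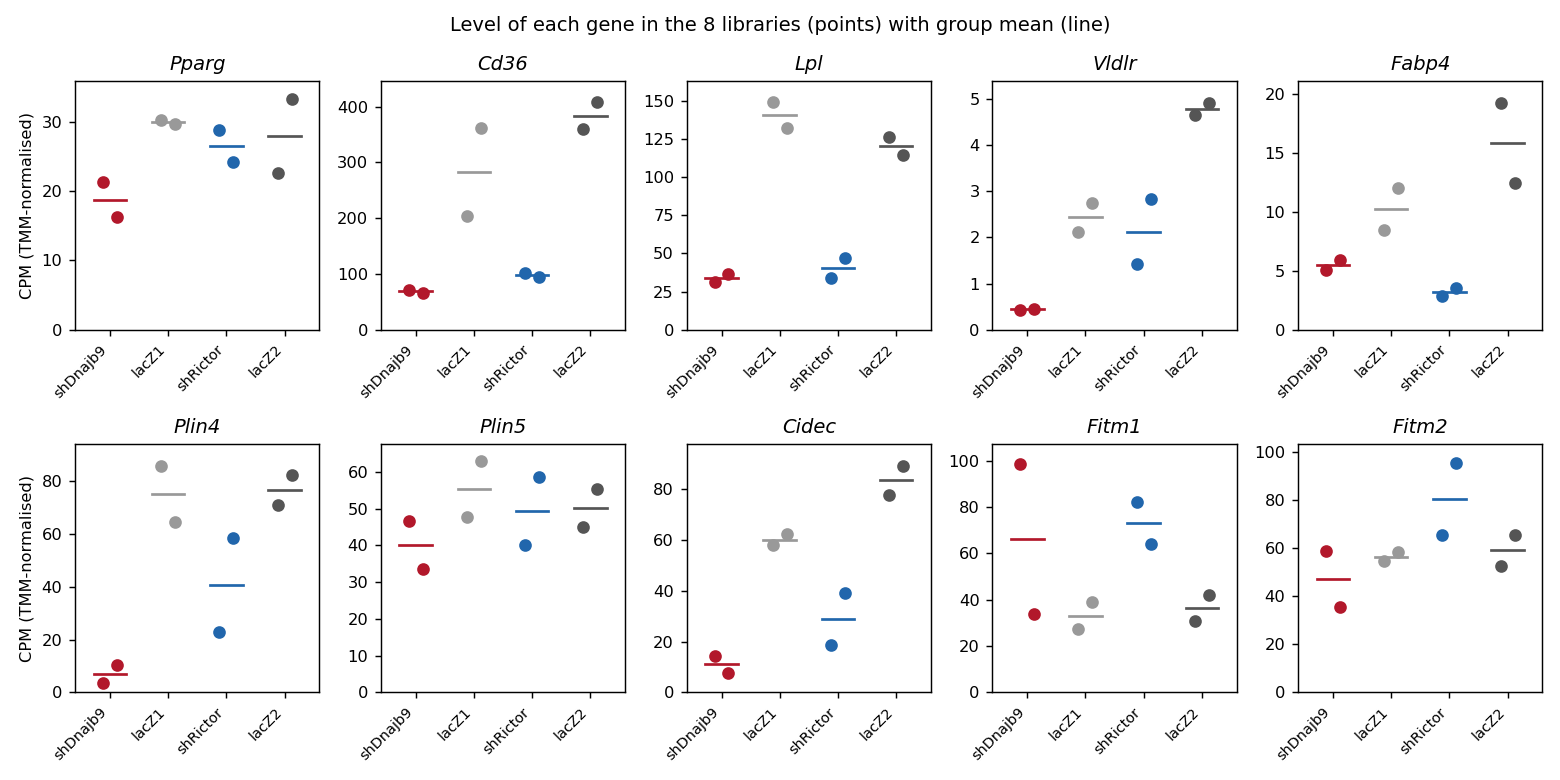
TMM-normalised CPM of the 10 members in the 8 libraries, with 1 point per library and a line at each group mean. Cd36 and Lpl have all 4 hairpin libraries below all 4 lacZ libraries, the Fitm1 points of shDnajb9 are far apart at 98.7 and 33.9 CPM, and the Pparg groups of shRictor and lacZ2 overlap.

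Among genes of uptake, Cd36 and Lpl fell in both contrasts and under every alternative tried. Cd36, on the minus strand at chr5:17781690-17888801, encodes a membrane protein that takes up long-chain fatty acids and is a textbook target of PPAR gamma. It was at 71.3 and 65.8 CPM in shDnajb9, against 204 and 361 CPM in lacZ1. It was at 102 and 94.4 CPM in shRictor, against 359 and 408 CPM in lacZ2. All 4 hairpin libraries were below all 4 lacZ libraries, a pattern that 17.9% of tested genes had. Cd36 fell by 2.04 on the log2 scale with the Dnajb9 hairpin (SE 0.318, adjusted p 0.000907), which is 4.12-fold lower. It fell by 1.96 with the Rictor hairpin (SE 0.315, adjusted p 0.00113), which is 3.90-fold lower. Leaving out 1 library at a time gave -2.43 to -1.58 with the Dnajb9 hairpin and -2.05 to -1.85 with the Rictor hairpin.

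Lpl, at chr8:68880491-68907448 on the plus strand, encodes lipoprotein lipase, which releases fatty acids from circulating triglyceride and is made in adult liver mainly outside hepatocytes. Lpl was at 31.0 and 36.4 CPM in shDnajb9, against 149 and 132 CPM in lacZ1. The shRictor libraries had 34.1 and 47.0 CPM, against 126 and 114 CPM in lacZ2. Every hairpin library was below every lacZ library. Lpl fell by 2.06 on the log2 scale with the Dnajb9 hairpin (SE 0.253, adjusted p 0.000203), 4.16-fold lower, and by 1.57 with the Rictor hairpin (SE 0.247, adjusted p 0.00100), 2.96-fold lower. Lipc, the lipase that hepatocytes themselves secrete, moved the other way and was at 233 and 127 CPM in shDnajb9, against 47.8 and 60.6 CPM in lacZ1. In shRictor Lipc was at 144 and 115 CPM, against 35.0 and 62.3 CPM in lacZ2. Of the summed level of both lipase genes per kilobase, the share of Lpl was 5.86% and 11.8% in shDnajb9, against 59.3% and 50.4% in lacZ1, and 9.95% and 16% in shRictor, against 62.8% and 46.1% in lacZ2. The lipase transcripts of the lacZ livers were thus split about evenly, and those of the hairpin livers were mostly Lipc.

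Vldlr, at chr19:27216484-27254231 on the plus strand, encodes the very low density lipoprotein receptor, which binds triglyceride-rich particles and is scarce in normal liver. Its reads were few, 2 and 4 in shDnajb9 against 24 and 23 in lacZ1, and 12 and 29 in shRictor against 40 and 58 in lacZ2. Scaled to depth, Vldlr stood at 0.419 and 0.457 CPM in shDnajb9, against 2.13 and 2.74 CPM in lacZ1. It was at 1.41 and 2.84 CPM in shRictor, against 4.65 and 4.91 CPM in lacZ2. Vldlr was lower in every hairpin library than in its own control, and lacZ2 was above lacZ1. It fell by 2.41 on the log2 scale with the Dnajb9 hairpin (SE 0.579, adjusted p 0.0109), and the summed reads gave a ratio of 0.186 with a 95% interval of 0.0648 to 0.435 that covers counting error only. Without replicate 1 of shDnajb9 the Dnajb9 value was -2.37 with an adjusted p of 0.0532, and without both libraries that stood apart the adjusted p was 0.0567. With the Rictor hairpin the log2 fold change was -1.15 (SE 0.394, adjusted p 0.0607), with a counting ratio of 0.456 (0.309 to 0.663). It was -1.75 without replicate 2 of shRictor (adjusted p 0.0546) and -0.75 without replicate 1 (adjusted p 0.349). That Rictor contrast passed the threshold with limma-voom (-1.20, adjusted p 0.0475), with total count scaling (-1.55, adjusted p 0.0208) and without the filter (-1.14, adjusted p 0.0395).

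Fabp4, at chr3:10204088-10208576 on the minus strand, encodes a fatty acid binding protein of adipocytes, macrophages and capillary endothelium. It was at 5.03 and 5.94 CPM in shDnajb9, against 8.51 and 12.0 CPM in lacZ1. In shRictor it was at 2.83 and 3.52 CPM, against 19.3 and 12.4 CPM in lacZ2. All 4 hairpin libraries were below all 4 lacZ libraries, with the lowest values in shRictor. Fabp4 fell by 2.30 on the log2 scale with the Rictor hairpin (SE 0.324, adjusted p 0.000532), 4.94-fold lower, and this call held in every alternative. With the Dnajb9 hairpin the log2 fold change was -0.88 (SE 0.321) with an adjusted p of 0.0612, and it passed with total count scaling (-1.29, adjusted p 0.0247) and without the filter (-0.89, adjusted p 0.0245). Fabp1, the abundant form of hepatocytes, averaged 3490 CPM per kilobase in shDnajb9 and 1380 in lacZ1, and 2990 in shRictor and 1480 in lacZ2. Fabp4 made up at most 1.46% of the summed level of the FABP genes per kilobase, in replicate 1 of lacZ2.

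Droplet coat and fusion genes did not move as a unit. Plin4 fell with the Dnajb9 hairpin, Cidec fell in both contrasts, and Plin5 was called in neither. Plin4, at chr17:56100591-56109803 on the minus strand, encodes a perilipin that coats nascent droplets, best known from adipocytes. It was at 3.56 and 10.5 CPM in shDnajb9, against 85.7 and 64.5 CPM in lacZ1. The shRictor libraries had 23.1 and 58.4 CPM, against 70.9 and 82.3 CPM in lacZ2. All 4 hairpin libraries were below all 4 lacZ libraries, and the libraries within each hairpin group were far apart. Plin4 fell by 3.34 on the log2 scale with the Dnajb9 hairpin (SE 0.478, adjusted p 0.000584), 10.1-fold lower, the largest change among the members. Without replicate 2 of shDnajb9 this value was -4.40 with an adjusted p of 0.00117. With the Rictor hairpin it was -0.91 (SE 0.419), with an adjusted p of 0.158. Without replicate 2 of shRictor the Rictor value was -1.73 with an adjusted p of 0.0303, without replicate 1 of shRictor it was -0.39, and without the filter -0.91 with an adjusted p of 0.00879. The strand setting of the counting was not given, and Plin4 overlaps Hdgfl2, listed as Hdgfrp2, on the other strand. Hdgfrp2 was at 41.1 and 37.3 CPM in shDnajb9, against 61.3 and 45.6 CPM in lacZ1, while in shRictor it was at 33.7 and 44.9 CPM, against 44.7 and 47.5 CPM in lacZ2. Pparg, Fitm1 and Fitm2 each overlap an annotated antisense gene too.

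Plin5, the neighbour of Plin4 at chr17:56111601-56117596 on the same strand, encodes a perilipin that tethers droplets to mitochondria in oxidative tissues. It was at 46.7 and 33.6 CPM in shDnajb9, against 47.8 and 63.0 CPM in lacZ1. In shRictor it was at 40.1 and 58.7 CPM, against 45.1 and 55.4 CPM in lacZ2. Both shDnajb9 libraries were below those of lacZ1, by little for replicate 1, and the shRictor values enclosed those of lacZ2. The log2 fold change was -0.47 (SE 0.273, adjusted p 0.218) with the Dnajb9 hairpin and -0.025 (SE 0.269, adjusted p 0.961) with the Rictor hairpin. Only total count scaling called the Dnajb9 value, at -0.91 with an adjusted p of 0.0224. The near-zero Rictor value turned positive with DESeq2 and its size factors and without replicate 2 of lacZ2 or replicate 1 of shRictor. Plin2, the main perilipin of hepatocytes, was far above both, at 167 CPM per kilobase in shDnajb9 and 533 in lacZ1, and 223 in shRictor and 545 in lacZ2. Plin4 averaged 1.22 CPM per kilobase in shDnajb9 and 13.1 in lacZ1, and 7.08 in shRictor and 13.3 in lacZ2, while Plin5 averaged 20.2 in shDnajb9 and 27.9 in lacZ1, and 24.9 in shRictor and 25.3 in lacZ2.

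Cidec, at chr6:113424634-113435760 on the minus strand, encodes a droplet protein that passes lipid from smaller to larger droplets, and is a PPAR gamma target of steatotic mouse liver. It was at 14.3 and 7.76 CPM in shDnajb9, against 57.8 and 62.5 CPM in lacZ1. The shRictor libraries had 18.6 and 38.9 CPM, against 77.8 and 89.1 CPM in lacZ2. Every hairpin library was below every lacZ library, and the shDnajb9 libraries were lowest. Cidec fell by 2.48 on the log2 scale with the Dnajb9 hairpin (SE 0.366, adjusted p 0.000690), 5.59-fold lower, under every alternative. It fell by 1.53 with the Rictor hairpin (SE 0.338, adjusted p 0.00808), 2.89-fold lower. The Rictor value was -1.09 with an adjusted p of 0.0736 without replicate 1 of shRictor, and -2.16 with an adjusted p of 0.00368 without replicate 2 of shRictor. Cideb, the CIDE gene of normal hepatocytes, averaged 5.13 CPM per kilobase in shDnajb9 and 2.92 in lacZ1, and 4.99 in shRictor and 2.92 in lacZ2. Cidec held 60.7% and 48.0% of the summed CIDE level in shDnajb9, against 92.9% and 90.8% in lacZ1, and 68.4% and 78.0% in shRictor, against 92.1% and 94.9% in lacZ2. Cidec was thus the main CIDE transcript in all libraries except replicate 2 of shDnajb9.

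**Figure D3:**
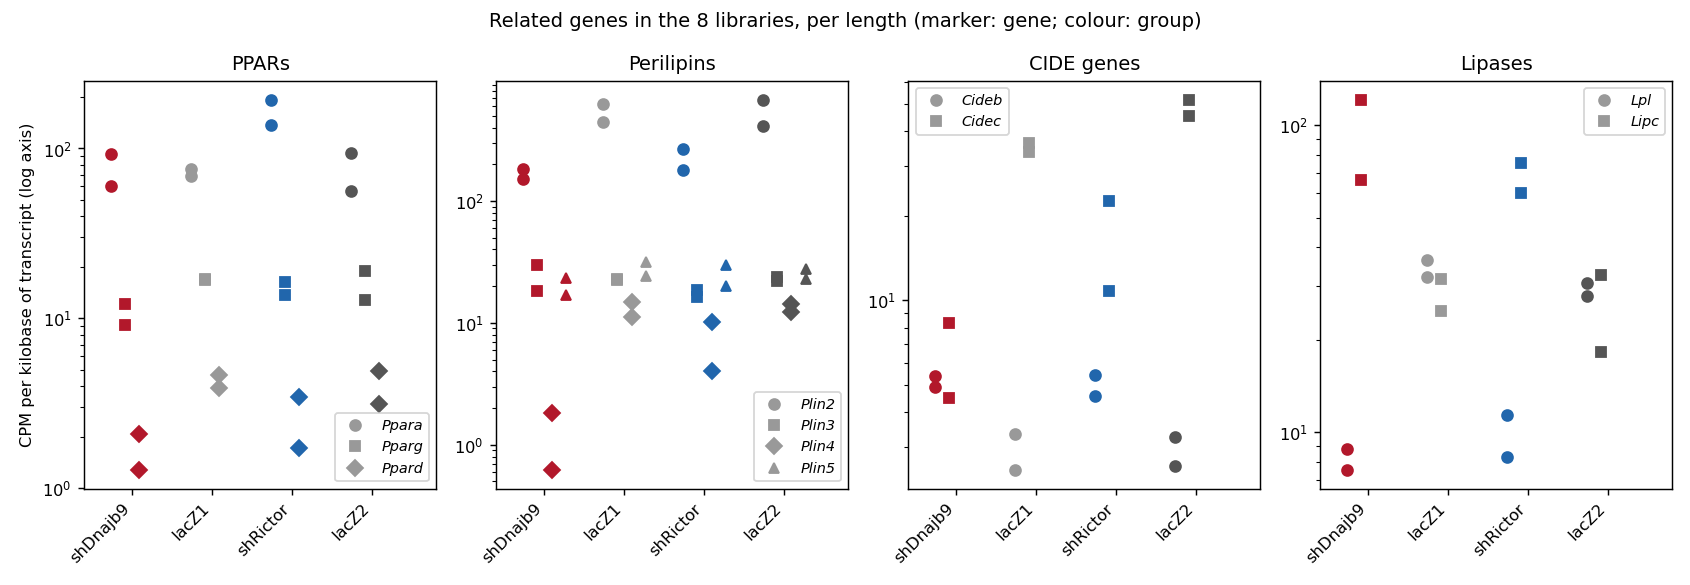
Level per kilobase of transcript (TMM-normalised CPM per kilobase, log axis) of members and their relatives by family, with 1 point per library. Cidec lies below the lacZ libraries in the hairpin libraries while Cideb lies above them, and Lpl lies near Lipc in the lacZ libraries and far below it in the hairpin libraries.

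Neither FITM gene was called, and Fitm1 had positive fold changes in both contrasts. Fitm1, at chr14:55575617-55576954 on the plus strand, encodes a droplet-forming protein of the endoplasmic reticulum best known from muscle. It was at 98.7 and 33.9 CPM in shDnajb9, against 27.4 and 39.0 CPM in lacZ1. In shRictor it was at 82.4 and 64.2 CPM, against 30.9 and 42.1 CPM in lacZ2. Both shRictor libraries were above both lacZ2 libraries, whereas only replicate 1 of shDnajb9 was above lacZ1. The log2 fold change was 0.99 (SE 0.401, adjusted p 0.0877) with the Dnajb9 hairpin and 1.00 (SE 0.397, adjusted p 0.103) with the Rictor hairpin. Replicate 1 of shDnajb9, which stood apart, decides the first of these values: without it the fold change was 0.038 with an adjusted p of 0.954, and without replicate 2 it was 1.57 with an adjusted p of 0.00279. The Rictor value stayed at 1.00 and passed, with an adjusted p of 0.0129 without replicate 1 of shDnajb9 and 0.0133 without its replicate 2, and of 0.0126 in a fit of only the libraries compared. Without the filter, the adjusted p was 0.00406 with the Dnajb9 hairpin and 0.00320 with the Rictor hairpin. Over 17 alternatives the Rictor value of Fitm1 ranged from 0.61, with total count scaling, to 1.26, and 13 left it uncalled. Dcaf11, a gene upstream of Fitm1 on the same strand with no overlap, was at 519 and 370 CPM in shDnajb9, against 189 and 209 CPM in lacZ1 (1.16, adjusted p 0.015). In shRictor Dcaf11 was at 323 and 359 CPM, against 168 and 201 CPM in lacZ2 (0.89, adjusted p 0.053). Psme1 is a coding neighbour of Fitm1 on the same strand. Psme1 was at 336 and 222 CPM in shDnajb9, against 199 and 251 CPM in lacZ1 (0.31, adjusted p 0.45). In shRictor Psme1 was at 170 and 165 CPM, against 221 and 234 CPM in lacZ2 (-0.44, adjusted p 0.329). The part of Dcaf11 and Psme1 in the Fitm1 values was not tested. Muscle markers were near 0 in all libraries, between 0 and 1.24 CPM in sum, and Acta1, the muscle marker that passed the filter, had 0 reads in the 4 hairpin libraries and 6 to 12 in the lacZ libraries.

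Fitm2, at chr2:163466379-163472629 on the minus strand, encodes the form found in most tissues, liver included. It was at 59.1 and 35.6 CPM in shDnajb9, against 54.6 and 58.4 CPM in lacZ1. The shRictor libraries had 65.7 and 95.7 CPM, against 52.6 and 65.7 CPM in lacZ2. The shDnajb9 values enclosed those of lacZ1, and the lower shRictor library was level with the higher lacZ2 library. The log2 fold change was -0.26 (SE 0.284, adjusted p 0.516) with the Dnajb9 hairpin, which turned to 0.063 without replicate 2 of shDnajb9. It was 0.45 (SE 0.280, adjusted p 0.302) with the Rictor hairpin. Per kilobase, Fitm1 was the higher of the pair in every library and made up 87.2% and 79.5% of their sum in shDnajb9, against 67.2% and 73.2% in lacZ1, and 83.7% and 73.3% in shRictor, against 70.6% and 72.4% in lacZ2.

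**Figure D4:**
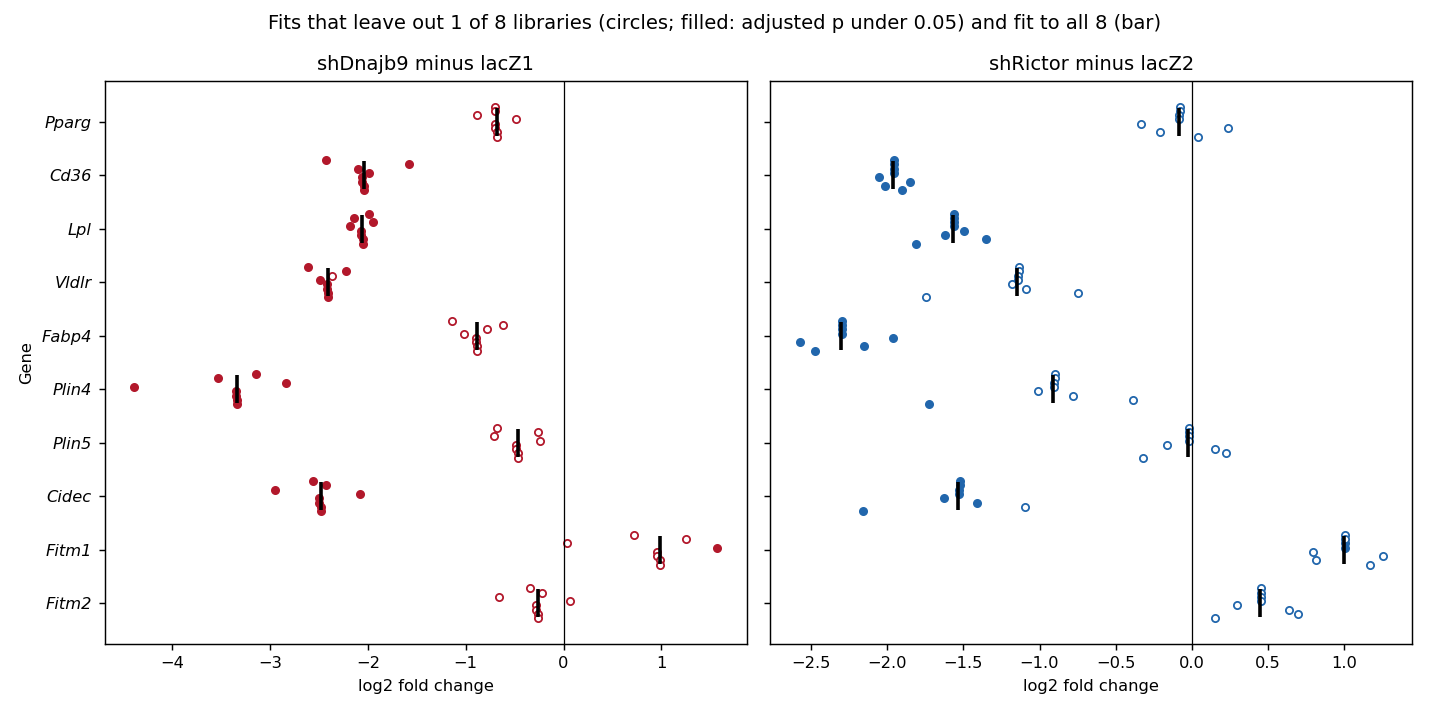
Log2 fold change of each member, shDnajb9 over lacZ1 and shRictor over lacZ2, with all 8 libraries and after leaving out each library in turn; filled points have an adjusted p under 0.05. Cd36 and Lpl stay filled throughout, Vldlr and Cidec each lose 1 call, and the Fitm1 value of the Dnajb9 contrast reaches 0.038 without replicate 1 of shDnajb9.

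By level per kilobase, the order of the members differed between hairpin and lacZ groups. In shDnajb9 Fitm1 was first at 68.3 ± 47.2 CPM per kilobase (SD, n = 2), followed by Cd36 at 20.2 ± 1.15 and Plin5 at 20.2 ± 4.69, and in lacZ1 Cd36 was first at 83.1 ± 32.8, followed by Cidec at 35.0 ± 1.93. In shRictor Fitm1 was first at 75.5 ± 13.3 CPM per kilobase, followed by Cd36 at 28.9 ± 1.64, and in lacZ2 Cd36 was first at 113 ± 10.1, followed by Cidec at 48.5 ± 4.65. Vldlr was last in every group, with means of 0.0549 CPM per kilobase in shDnajb9 and 0.305 in lacZ1, and 0.267 in shRictor and 0.600 in lacZ2. Fitm1 was first in both shDnajb9 libraries, at 102 and 34.9 CPM per kilobase, although the lower value lay within its own range in the lacZ libraries. In lacZ1, Cidec, Fitm1, Lpl and Plin5 had overlapping or nearly touching ranges, so that their order there is not separable from the spread. Plin4 was next to last in shDnajb9, at 1.22 ± 0.853 CPM per kilobase, and was at 13.1 ± 2.61 in lacZ1.

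Whether the hairpins differed in their effect was tested as the Rictor contrast minus the Dnajb9 contrast. By edgeR 0 of the 10 members passed, and 1 of all tested genes did (0.00726%). At an unadjusted p under 0.05 edgeR had 2 members, Plin4 and Fabp4, and 1495 of the 13767 tested genes. DESeq2 called 1 member, Plin4, and 43 genes in all, and limma-voom called 0 members and 1 gene in all. For Plin4 the difference was 2.43 on the log2 scale (SE 0.622, adjusted p 0.364), the fall being deeper with the Dnajb9 hairpin. The DESeq2 value of Plin4 was 2.47 with an adjusted p of 0.0318, and without the filter edgeR gave 2.44 with an adjusted p of 4.55e-06. This difference was 3.49 without replicate 2 of shDnajb9 and 1.61 without replicate 2 of shRictor, and 1.83 without both libraries that stood apart. For Fabp4 the difference was -1.42 (SE 0.456, adjusted p 0.407), the fall being deeper with the Rictor hairpin. For Cd36 it was 0.081 (SE 0.432, adjusted p 0.961), and it turned to -0.38 without replicate 2 of lacZ1. For Vldlr it was 1.27 (SE 0.723, adjusted p 0.523), for Cidec 0.95 (SE 0.487, adjusted p 0.490), for Lpl 0.49 (SE 0.345, adjusted p 0.602) and for Fitm1 0.012 (SE 0.561, adjusted p 0.996).

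The control groups were compared as lacZ2 minus lacZ1, where age and control group cannot be told apart. By edgeR 0 members and 0 of all tested genes passed (0%). At an unadjusted p under 0.05 edgeR had 1 member, Vldlr, and 169 of all genes. DESeq2 called 0 members and 1 gene in all, and limma-voom called 0. Vldlr was at 4.65 and 4.91 CPM in lacZ2, against 2.13 and 2.74 CPM in lacZ1, a log2 fold change of 0.98 with an adjusted p of 1. Cidec, Fabp4 and Vldlr lay above lacZ1 in both lacZ2 libraries and Lpl lay below, 4 of 10 members without overlap. Of all tested genes 21.7% did not overlap, 11.7% higher and 9.97% lower. The corresponding counts of members without overlap were 8 of 10 with the Dnajb9 hairpin, all lower, where 67.5% of tested genes did not overlap, 35.1% lower and 32.4% higher. With the Rictor hairpin 6 members were lower and 2 higher without overlap, where 60.4% of tested genes did not overlap, 31.6% lower and 28.8% higher. Those 2 were Fitm1 and Fitm2. Fitm2 was separated only barely, at 65.69 CPM in replicate 1 of shRictor against 65.68 CPM in replicate 2 of lacZ2.

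Other droplet proteins were called about as often as all tested genes. Of all tested genes, 12.6% fell and 11.6% rose with the Dnajb9 hairpin, and 10.9% fell and 7.31% rose with the Rictor hairpin. Of 20 tested genes of a list of droplet proteins outside the members, 3 fell and 1 rose with the Dnajb9 hairpin, and 2 fell and 1 rose with the Rictor hairpin. Those that fell were Plin2, G0s2 and Hsd17b13 with the Dnajb9 hairpin and Plin2 and Hilpda with the Rictor hairpin, and the risers were Acsl3 with the first and Mettl7a1 with the second. Leaving out 1 library gave 0 to 4 risers with the Dnajb9 hairpin and 0 to 3 with the Rictor hairpin, and total count scaling gave 0 in both. Acsl3 lost its call without either lacZ1 library (adjusted p 0.0908 and 0.0859) or replicate 1 of shDnajb9 (0.163), and Mettl7a1 without replicate 1 of lacZ2 (0.220), either shRictor library (0.169 and 0.129) or either lacZ1 library (0.0684 and 0.0687). The median log2 fold change of the list was 0.14 with the Dnajb9 hairpin and 0.28 with the Rictor hairpin. Plin2 was at 285 and 346 CPM in shDnajb9, against 840 and 1170 CPM in lacZ1, and fell by 1.67 on the log2 scale (SE 0.385, adjusted p 0.00873). It was at 340 and 503 CPM in shRictor, against 772 and 1280 CPM in lacZ2, and fell by 1.29 (SE 0.380, adjusted p 0.0328). All 4 hairpin libraries held less Plin2 than any lacZ library. Leaving out 1 library gave -1.92 to -1.42 with the Dnajb9 hairpin and -1.61 to -0.85 with the Rictor hairpin, but some calls were lost. The Dnajb9 call was lost without replicate 2 of lacZ1 (adjusted p 0.0612) or replicate 1 of shDnajb9 (0.0754). The Rictor call was lost without replicate 1 of lacZ1 (0.0509), replicate 2 of lacZ2 (0.163), replicate 1 of shRictor (0.247) or replicate 2 of shRictor (0.0780). Hilpda, an inhibitor of the lipase that opens droplets, fell by 1.92 with the Rictor hairpin (SE 0.469, adjusted p 0.0133), and lost the call without replicate 1 of lacZ2 (-1.30, adjusted p 0.143) or either shRictor library (0.0635 and 0.0844). Leaving out 1 library gave between 1 and 3 droplet proteins that fell with the Dnajb9 hairpin, 1 without either lacZ1 library or replicate 1 of shDnajb9, and between 0 and 2 with the Rictor hairpin, 0 without either shRictor library and 1 without replicate 1 of lacZ1 or either lacZ2 library.

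Uptake genes outside the members that edgeR called were higher, apart from Fabp7, while scaling by total count alone, which lowers all genes, gave 6 risers and 4 fallers with the Dnajb9 hairpin and 4 and 3 with the Rictor hairpin. Of 23 tested, 8 rose with the Dnajb9 hairpin, where 11.6% of all tested genes were called higher. With the Rictor hairpin 7 rose and 1, Fabp7, fell, where 7.31% of all tested genes were called higher and 10.9% lower. The median log2 fold change of the uptake list was 0.51 with the Dnajb9 hairpin and 0.81 with the Rictor hairpin. Fabp7, a fatty acid binding protein best known from brain, had a Rictor value of -1.68 (adjusted p 0.0157), which was -0.96 without replicate 1 of lacZ2 (adjusted p 0.192) and lost its call without either shRictor library (0.0564 and 0.102). Among the risers were Lipc, Slc27a5 and Lmf1 in both contrasts, Fabp1, Fabp5, Apoa5 and Apoc3 with the Dnajb9 hairpin, and Slc27a2 and Scarb1 with the Rictor hairpin. Slc27a5, the hepatocyte's bile acid and fatty acid ligase, was at 887 and 722 CPM in shDnajb9, against 176 and 231 CPM in lacZ1. In shRictor Slc27a5 was at 632 and 679 CPM, against 84.6 and 209 CPM in lacZ2. Its log2 fold change of 2.16 with the Rictor hairpin (SE 0.413, adjusted p 0.00343) kept its call throughout, with 2.97 without replicate 2 of lacZ2. Its Dnajb9 value of 1.98 (SE 0.410, adjusted p 0.00497) was 1.77 with an adjusted p of 0.0767 without replicate 1 of lacZ1. For Lipc the values were 1.73 (SE 0.346, adjusted p 0.00444) with the Dnajb9 hairpin and 1.41 (SE 0.343, adjusted p 0.0136) with the Rictor hairpin. Lipc lost the Dnajb9 call without replicate 1 of lacZ1 (adjusted p 0.0615) and the Rictor call without replicate 1 of lacZ2 (0.124) or replicate 1 of shRictor (0.0772). The 8 risers of the Dnajb9 contrast became 0 without replicate 1 of lacZ1, 5 without replicate 2 of lacZ1 and 3 without replicate 1 of shDnajb9. The 7 of the Rictor contrast became 1 without replicate 1 of lacZ2, and 2 or 3 without replicate 1 or 2 of shRictor. Without both libraries that stood apart, 5 rose with the Dnajb9 hairpin and 2 with the Rictor hairpin.

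Among 17 partners and regulators of PPAR gamma, 3 rose and 2 fell with the Dnajb9 hairpin, and 3 rose with the Rictor hairpin. Of all tested genes, 11.6% rose and 12.6% fell with the Dnajb9 hairpin, and 7.31% rose with the Rictor hairpin. Median log2 fold changes of the 17 were -0.10 with the Dnajb9 hairpin and 0.30 with the Rictor hairpin. Ppargc1a and Cebpa rose in both, Rxrg rose and Ppard was among those that fell with the Dnajb9 hairpin, and Ppara rose with the Rictor hairpin. Ppargc1a, the coactivator of fasting, was at 17.0 and 31.4 CPM in shDnajb9, against 11 and 13.1 CPM in lacZ1. In shRictor Ppargc1a was at 21.3 and 23.4 CPM, against 6.98 and 9.22 CPM in lacZ2, 1.46 higher on the log2 scale (SE 0.302, adjusted p 0.00547), which became 1.28 with an adjusted p of 0.0747 without replicate 1 of lacZ2. Cebpa, which works beside PPAR gamma in fat cell formation, was higher by 1.35 on the log2 scale with the Dnajb9 hairpin (SE 0.360, adjusted p 0.0183), and lost the call without either lacZ1 library (adjusted p 0.166 and 0.0740) or replicate 1 of shDnajb9 (0.82, adjusted p 0.175). Without either lacZ1 library 0 of these genes rose or fell with the Dnajb9 hairpin, and without replicate 1 of shDnajb9 1 rose and 0 fell. With the Rictor hairpin 0 rose without replicate 1 of lacZ2, and 1 rose without either lacZ1 library or either shRictor library.

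Most known targets of PPAR gamma outside the members were not called, and those that passed were lower, with 1 exception. Of 14 tested, 3 fell with the Dnajb9 hairpin, where 12.6% of all tested genes were called lower. With the Rictor hairpin 4 fell and 1 rose, where 10.9% of all tested genes were called lower and 7.31% higher. Plin2, Pdk4 and Ucp2 fell in both, Aqp7 fell with the Rictor hairpin, and Pck1, the gluconeogenic enzyme, rose with it (2.01, adjusted p 0.00838), a call lost without replicate 1 of lacZ2 (adjusted p 0.0545) or replicate 2 of shRictor (0.0894). Aqp7, a glycerol channel, rests on 1 and 2 reads in shRictor against 14 and 15 in lacZ2, and lost its call with DESeq2 (adjusted p 0.0523), without replicate 1 of lacZ2 (0.0704) and without either shRictor library (0.113 and 0.0867). The Dnajb9 call of Pdk4 (-1.72, adjusted p 0.0176) was lost without any of its own 4 libraries, with adjusted p between 0.0599 and 0.167. The median log2 fold change was -0.35 with the Dnajb9 hairpin and -0.0011 with the Rictor hairpin. Ucp2, a mitochondrial carrier abundant in macrophages, was at 42.8 and 65.0 CPM in shDnajb9, against 202 and 142 CPM in lacZ1, while in shRictor it was at 65.5 and 93.3 CPM, against 193 and 160 CPM in lacZ2. Ucp2 fell by 1.67 with the Dnajb9 hairpin (SE 0.306, adjusted p 0.00254) and by 1.15 with the Rictor hairpin (SE 0.300, adjusted p 0.0185). Pdk4, a brake on glucose oxidation, fell by 2.94 with the Rictor hairpin (SE 0.445, adjusted p 0.000880). It was at 3.88 and 5.09 CPM in shRictor, against 52.7 and 17.1 CPM in lacZ2, and its fold change was -1.92 without replicate 1 of lacZ2 and -3.53 without replicate 2. The Dnajb9 count was 1 without replicate 2 of lacZ1 or replicate 1 of shDnajb9, and the Rictor count was 2 without replicate 1 of lacZ2 or replicate 2 of shRictor and 1 without replicate 1 of shRictor.

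PPAR alpha targets, listed because the receptors share a motif, showed 5 falls of 17 with the Dnajb9 hairpin and 3 with the Rictor hairpin. Of all tested genes, 12.6% fell with the Dnajb9 hairpin and 10.9% with the Rictor hairpin. At the median, the log2 fold change of these targets was -0.75 with the Dnajb9 hairpin and -0.25 with the Rictor hairpin. Acot2 and Fgf21 fell in both, as did Pdk4, whose Dnajb9 call was lost without any of its own 4 libraries (adjusted p 0.0599 to 0.167), and Ehhadh and Acot1 fell with the Dnajb9 hairpin. Acot2, a mitochondrial thioesterase, was at 6.29 and 4.68 CPM in shDnajb9, against 54.3 and 49.2 CPM in lacZ1, while in shRictor it was at 10.4 and 14.7 CPM, against 80.7 and 75.3 CPM in lacZ2. It fell by 3.26 with the Dnajb9 hairpin (SE 0.282, adjusted p 3.78e-05) with a Rictor value of -2.63 (SE 0.257, adjusted p 0.000104), under every alternative. Fgf21, a fasting hormone, fell by 3.26 with the Dnajb9 hairpin (SE 0.644, adjusted p 0.00389) on 1 and 3 reads in shDnajb9 against 35 and 23 in lacZ1, with a Rictor value of -2.75 (SE 0.467, adjusted p 0.00163), or -3.55 without replicate 1 of shRictor. The Dnajb9 count of falls was 2 without replicate 2 of lacZ1 or replicate 2 of shDnajb9. Total count scaling, which lowers all genes, raised the falls of this list to 9 with the Dnajb9 hairpin and 5 with the Rictor hairpin.

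Markers of monocyte-derived and lipid-associated macrophages were lower in the same libraries as Cd36, Lpl and Cidec. Their summed level over 7 genes was 56.8 and 88.9 CPM in shDnajb9, against 246 and 235 CPM in lacZ1, while in shRictor the sum was 67.5 and 85.9 CPM, against 227 and 294 CPM in lacZ2. Of the 7, Gpnmb, Spp1, Cd9 and Itgax fell with the Dnajb9 hairpin, and Gpnmb, Trem2, Cd9, Itgax and Ccr2 fell with the Rictor hairpin. Among all tested genes 12.6% fell with the Dnajb9 hairpin and 10.9% with the Rictor hairpin. Gpnmb, a glycoprotein of lipid-laden macrophages, was at 3.77 and 4.22 CPM in shDnajb9, against 62.3 and 45.4 CPM in lacZ1, while in shRictor it was at 4.24 and 9.10 CPM, against 83.6 and 70.4 CPM in lacZ2. Markers of Kupffer cells and macrophages in general, Cd68 and Lyz2 among them, had sums of 998 and 1140 CPM in shDnajb9, against 1170 and 1360 CPM in lacZ1, while in shRictor the sum was 684 and 818 CPM, against 1170 and 1290 CPM in lacZ2. Of 7 tested markers of this list, Marco and Cd68 fell with the Dnajb9 hairpin and Cd5l, Cd68 and Lyz2 with the Rictor hairpin. Clec4f, Vsig4 and Csf1r were called in neither. Their log2 fold changes were 0.33, -0.82 and -0.83 with the Dnajb9 hairpin and 0.083, 0.48 and -0.50 with the Rictor hairpin. Cd5l, the largest part of the sum, was at 278 and 353 CPM in shRictor, against 613 and 627 CPM in lacZ2. The part of these macrophage markers in the lower Cd36, Lpl, Fabp4 and Vldlr was not tested. In bulk liver RNA, fewer cells of a type and less RNA per cell cannot be told apart.

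Defining adipocyte markers were near 0. Lep had 0 reads in every library, Adipoq and Plin1 had 0 to 2, and the sum over 6 adipocyte markers, 9.93 to 32.2 CPM, was mostly Adrb3. Adrb3 was at 8.38 and 9.70 CPM in shDnajb9, against 26.3 and 15 CPM in lacZ1, and passed in that contrast (-1.19, adjusted p 0.0191). Sinusoidal endothelial markers summed to 606 and 727 CPM in shDnajb9, against 647 and 628 CPM in lacZ1, while in shRictor the sum was 623 and 602 CPM, against 553 and 605 CPM in lacZ2. Of those 8, 1 rose with the Dnajb9 hairpin, Clec4g, and 0 with the Rictor hairpin. Capillary endothelial markers summed to 93.3 and 74.3 CPM in shDnajb9, against 36.6 and 52.9 CPM in lacZ1, while in shRictor the sum was 71.9 and 41.6 CPM, against 47.5 and 49.6 CPM in lacZ2. Of 4 tested, Cd300lg rose with the Dnajb9 hairpin and Cd34 fell with the Rictor hairpin. Stellate cell markers summed to 427 and 584 CPM in shDnajb9, against 635 and 595 CPM in lacZ1, while in shRictor the sum was 567 and 487 CPM, against 563 and 577 CPM in lacZ2. Of 10 stellate markers, 3 rose and 2 fell with the Dnajb9 hairpin, and 1 rose and 1 fell with the Rictor hairpin. Among all tested genes 11.6% rose and 12.6% fell with the Dnajb9 hairpin, and 7.31% rose and 10.9% fell with the Rictor hairpin. Hepatocyte markers, which fit the liver label, summed to 72600 and 65700 CPM in shDnajb9, against 45300 and 58800 CPM in lacZ1, while in shRictor the sum was 65400 and 77800 CPM, against 25200 and 49600 CPM in lacZ2. Of 9 tested hepatocyte markers, 5 rose with the Dnajb9 hairpin and 4 with the Rictor hairpin. Alb, the largest part of the sum, was called in neither contrast, at -0.36 with the Dnajb9 hairpin and 0.67 with the Rictor hairpin. Ass1, also on the hepatocyte list, had 0 to 2 reads in every library and was not tested, and the reason for so few reads was not examined.

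**Figure D5:**
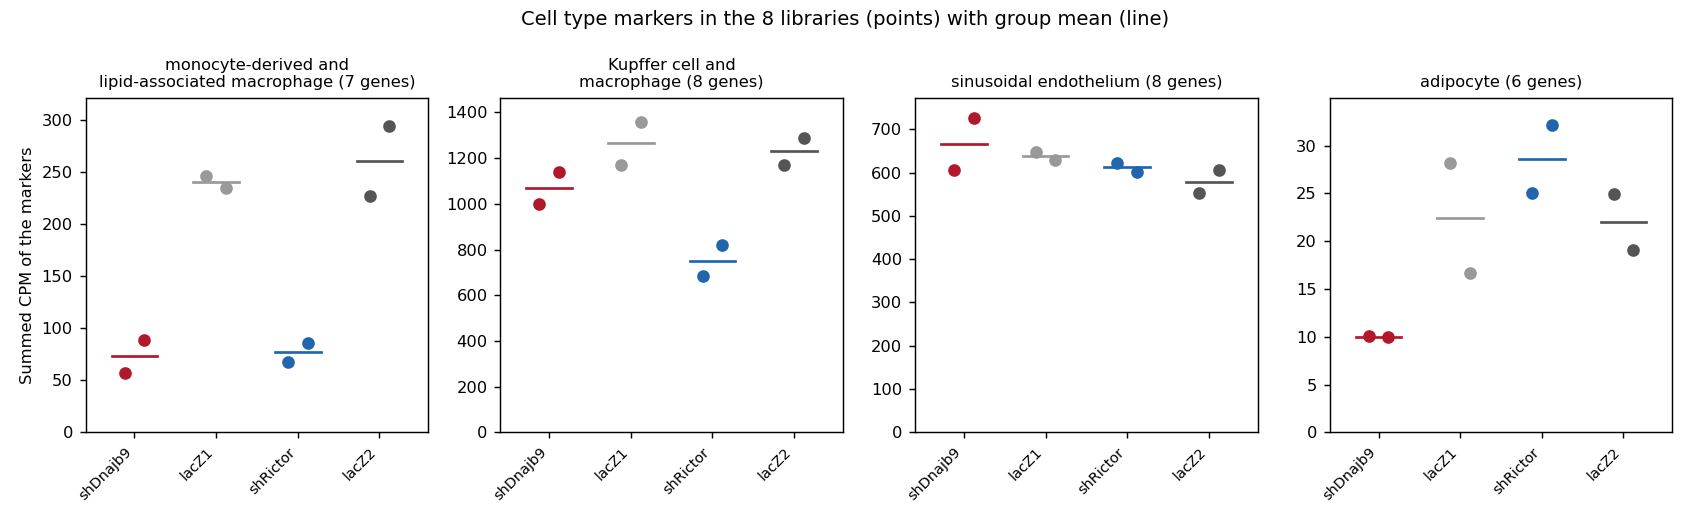
Summed TMM-normalised CPM of cell type marker lists, with 1 point per library. Monocyte-derived and lipid-associated macrophage markers reach 88.9 CPM at most in the hairpin libraries and 227 CPM at least in the lacZ libraries, and sinusoidal endothelial markers lie between 553 and 727 CPM in all libraries.

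The genes whose pattern over the 8 libraries was most like that of Pparg were Lmln, Rcn2 and Mtap. Likeness was the root mean square difference of log2 CPM, each gene centred on its own mean, among 11838 genes, and it was 0.113 for Lmln, 0.116 for Rcn2 and 0.120 for Mtap. Rcn2 was at 9.01 and 7.19 CPM in shDnajb9, against 13.1 and 12.5 CPM in lacZ1, while in shRictor it was at 10.1 and 9 CPM, against 10.1 and 14.2 CPM in lacZ2. Of the members, Plin5 was nearest to Pparg at 0.253, rank 376 among the tested genes, followed by Fitm2 at 0.335. The other members were between 0.724 and 1.36 away, and Plin4 was the farthest. The measure is not scaled to a gene's own range, so a member with large fold changes lies far from Pparg whatever its shape.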

How the data were processed

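Liver RNA of 8 libraries was sequenced, 2 in each of 4 groups taken from the labels. The authors deposited raw counts per gene symbol, made with HTSeq on build mm10 after trimming with cutadapt, per the submitters' processing notes. The aligner, tool versions, annotation and strand setting were not given in the sources used here. HTSeq's unassigned classes, 48.42% to 63.74% of reads, stayed out of library sizes, and 27 entries named by a date could not be assigned to a gene.

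The counts were tested with edgeR 4.0.16 under R 4.3.3. Genes passed filterByExpr at a minimum count of 10. Depth was scaled with edgeR's trimmed mean of M values (TMM), also for CPM. The model had 4 group means over the 8 libraries and 4 residual degrees of freedom. Contrasts were tested by the robust quasi-likelihood F test with Benjamini-Hochberg adjustment over the 13767 tested genes. Fold changes come from this fit, with a median SE of 0.29 in either hairpin contrast. Groups of 2 allow no exact permutation p below 0.333. Libraries of a group were distinct beyond sampling noise (chi-square of 19.4 to 55.4 per degree of freedom). Intervals of count ratios are exact and cover counting error only.

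Genes picked by rule were the 10 members, and the 3 genes most like Pparg, without clone-based or predicted names. From each of 5 pathway lists the rule took up to 3 called genes with the smallest adjusted p per hairpin contrast. Further called list genes, relatives and neighbours of the members, and cell type markers are named beside them. The lists cover droplet proteins, lipid uptake, PPAR gamma partners, PPAR gamma targets and PPAR alpha targets, and 8 lists mark cell types. The results of some list genes are not reported here. Members and lists were chosen with earlier results of these data known. Angptl8 and Gk were in the count tables under the older symbols Gm6484 and Gyk, which were used. Ldah and Adgre1 were not matched under these symbols. Promoter sequences are from RefSeq, GRCm38.p6; Fabp4 and Lpl had no entry.

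Alternatives were scaling by RLE size factors or by total count only, testing without the filter or with one of 2 CPM in 2 libraries, DESeq2 1.42.0, limma-voom (limma 3.58.1), only the libraries compared, a replicate block, and fits without each library and without both libraries that stood apart. A group left with 1 library was assumed to vary like the others.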

Additional observations from a re-analysis of the deposited data

How the results depend on the processing

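With 1 library left out, 4 or 5 members fell with the Dnajb9 hairpin and 3 to 5 with the Rictor hairpin; without the filter 7 and 6 fell. With total count only, 8 members fell in the Dnajb9 contrast; all genes called higher were then 610 and lower 3354, and with the Rictor hairpin 436 and 2810, since that scaling lowers all genes. Members that rose ranged from 0 to 1 in each contrast when 1 library was left out, with 1 in each without the filter and 1 with the Rictor hairpin in only the libraries compared. Leaving out 1 library gave 998 to 4142 called genes with the Dnajb9 hairpin, 318 to 2099 higher and 680 to 2043 lower, and 1053 to 3009 with the Rictor hairpin, 314 to 1263 higher and 684 to 1746 lower. Without both libraries that stood apart there were 1675 with the Dnajb9 hairpin, 753 higher and 922 lower, and 619 higher with the Rictor hairpin. The difference of the contrasts called 1 gene, and 395 without the filter, 43 by DESeq2, 0 without both libraries and 0 to 19 without 1; members that rose in it were 1 without the filter and 1 by DESeq2. lacZ2 minus lacZ1 called 13 without the filter, 1 by DESeq2, 1 in only the libraries compared and 0 to 1 without 1 library. The causes were not tested.

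Signs turned for values near 0. The Rictor value of Plin5 was 0.0014 with RLE size factors and with DESeq2, and -0.32 to 0.23 over fits without 1 library, with 0.15 without replicate 2 of lacZ2. That of Pparg spanned -0.33 to 0.24, the Dnajb9 value of Fitm2 -0.66 to 0.063, and the difference of contrasts -0.38 to 0.47 for Cd36 and -0.57 to 0.97 for Fitm1, over fits without 1 library.

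The labels do not say that replicate numbers pair libraries, and same-numbered libraries did not deviate together (r across genes -0.30 in the shDnajb9 and lacZ1 groups and -0.032 in the shRictor and lacZ2 groups). With a replicate block, 3 genes were called in the difference of contrasts, and 5 members fell with the Dnajb9 hairpin and 4 with the Rictor hairpin, as without it. Depth limits Vldlr most, with 2 and 4 reads in shDnajb9 against 24 and 23 in lacZ1.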
